A study of Rattus norvegicus with 192 samples.

Results

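Dusp1, Dusp2, Dusp4, Dusp5, Dusp6 and Dusp10 encode dual specificity phosphatases that switch off MAP kinases, and their mRNA levels were read in 6 tissues of rats that had inhaled phosphine (PH3), a fumigant gas. The genes were taken as the probe sets whose platform annotation names one of these 6 symbols and no other gene, which gave 9 probe sets out of 31042 on the array and 6 genes out of 13438 named that way. Dusp1 had 2 probe sets and Dusp6 had 3, and each gene is described by the probe set that was brightest over all 192 arrays, with the others beside it where they differed. The PH3 rats were adult male Sprague-Dawley rats of 300 to 400 g that breathed 660 ppm for 25 min in a whole-body chamber, a product of 16500 ppm x min or 0.71 of the median lethal product. The Air rats were labelled as exposed to 0 ppm for the same 25 min, and brain stem, heart, kidney, lung, olfactory bulb and blood were taken from both at 1, 3, 6 and 24 h after the exposure. Each of the 48 groups held 4 arrays, apart from olfactory bulb Air at 1 h with 5 and blood Air at 24 h with 3, and the numbers in the labels identify 59 rats. All rats, Air rats included, were given ketamine and xylazine at euthanasia, and blood was drawn from the heart.

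MAP kinases are activated by phosphorylation of a threonine and a tyrosine in a short loop, and a dual specificity phosphatase removes both phosphates. Most of these phosphatases are made on demand: the kinase cascade induces the gene of its own inhibitor, so that mRNA of Dusp1, Dusp2, Dusp4, Dusp5 and Dusp6 can rise within an hour of a stimulus and then decline. Dusp1, Dusp2, Dusp4 and Dusp5 act in the nucleus, Dusp6 acts in the cytoplasm on ERK, and Dusp10 acts mainly on the stress kinases p38 and JNK. Glucocorticoid hormone also induces Dusp1.

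All values below are log2 intensities, and a difference is PH3 minus Air on that scale with its standard error, so that a difference of 1 doubles the intensity. A difference was called when its Benjamini-Hochberg adjusted p over all 31042 probe sets of that tissue and time, from limma, was under 0.05. Of the markers listed for each tissue, all that were measured were highest in their own tissue for heart (5 genes), lung (5), olfactory bulb (4) and blood (6). In kidney 4 of 5 were, the exception being Slc34a1, and in brain stem 2 of 4 were, the exceptions being Slc6a5 and Hoxb3. By correlation with the other arrays of its tissue, 29 of the 192 arrays stood apart. Among them at 1 h were kidney PH3 Rat343, kidney PH3 Rat351, kidney Air Rat345, lung PH3 Rat351, lung PH3 Rat357, heart PH3 Rat357 and brain stem PH3 Rat343. The called differences and some of the others, but not all, are given without such arrays as well. In whole tissue, a change in the number of cells of one type and a change in RNA per cell cannot be told apart.

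In Air rats, the levels of the 6 genes were distributed differently over the tissues. Dusp1 was highest in lung at 10.43 ± 0.38 (SD, n = 16) and next in heart at 10.04 ± 0.17 (n = 16), ranges that overlapped, and every heart array lay above every kidney array. Kidney (8.77), olfactory bulb (8.37), brain stem (8.25) and blood (7.74) followed with overlapping ranges. Dusp6, the cytoplasmic phosphatase of ERK, was also highest in lung, at 10.13 ± 0.20 (n = 16, range 9.81 to 10.42), above every kidney array, which averaged 9.0 (range 8.76 to 9.38). It was lowest in brain stem at 7.37, and the other 2 Dusp6 probe sets put lung first and brain stem last too. Dusp2, best known from lymphocytes and macrophages, was highest in blood at 6.82 ± 0.81 (n = 15) and lowest in brain stem at 4.09 ± 0.33 (n = 16), with each tissue overlapping the next in between. Dusp5, a nuclear phosphatase of ERK, averaged 6.73 in olfactory bulb and 6.56 in heart, an order that turned round when array medians were subtracted, and 4.23 in brain stem. Dusp4 and Dusp10 were dim. Dusp4 averaged between 3.14 in brain stem and 4.39 in blood, and Dusp10 between 3.10 in kidney, where 11.8% of all probe sets were dimmer, and 4.38 in heart. That heart mean pools 3.68 at 1 h and 3.58 at 3 h with 5.14 at 6 h and 5.10 at 24 h. At 1 and 3 h Dusp10 averaged higher in blood (4.11 and 3.88) and lung (4.26 and 3.84) than in heart. Blood arrays had lower upper quantiles than the other tissues (95% quantile 8.60 to 9.37 in blood, 9.73 to 9.88 in the others), so a level in blood is less comparable with the rest.

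**Figure D1:**
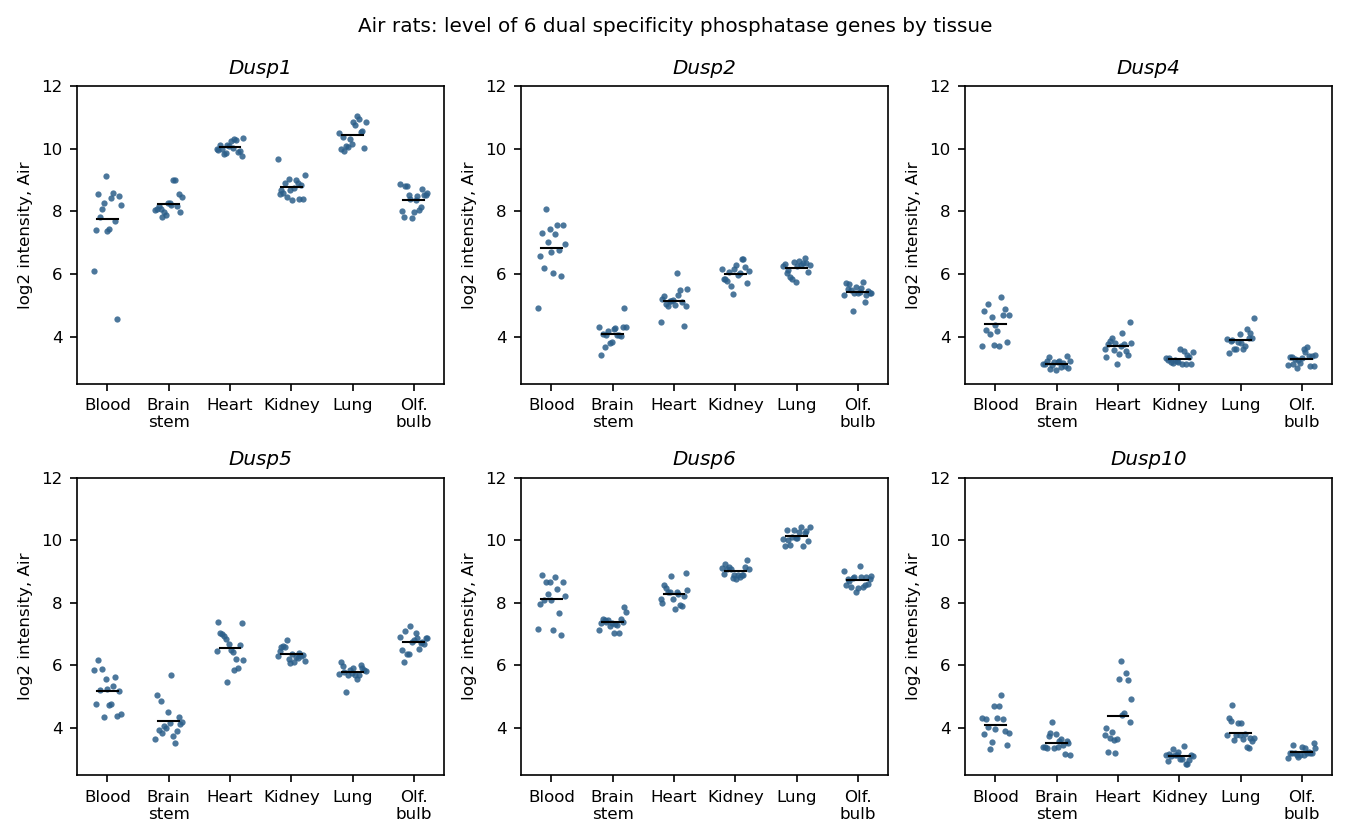
Log2 intensity (vertical axis) of the brightest probe set of each gene in Air rats of all times, by tissue (horizontal axis). Points are arrays (15 to 17 a tissue) and lines are means; lung was highest for Dusp1 and Dusp6, blood for Dusp2 and Dusp4, and heart Dusp10 spread from 3.20 to 6.14.

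At 1 h after the exposure 3 of the 36 differences (6 genes in 6 tissues) were called, and all 3 were higher in PH3 rats: Dusp2 and Dusp10 in kidney and Dusp1 in lung. By the brightest probe sets none of the 108 differences at 3, 6 and 24 h was called by limma, and of the other probe sets 1 of Dusp1 was, in lung at 3 h. Over all probe sets, 4.24% were called in lung at 1 h (2.35% higher), 2.35% in kidney (1.51% higher), 0.915% in heart, 0.306% in brain stem, 0% in blood and 0.00322% in olfactory bulb. The 3 h share was 9.89% in lung, 0.303% in kidney, 0.0161% in brain stem and 0.00644% in heart, and in every tissue 0.0161% or less were called at 6 and 24 h. Unadjusted p was under 0.05 for 20 of all 144 differences of the 6 genes, 13.9%, beside 7.7% over all probe sets in the same comparisons. The sign was positive for 26 of the 36 differences at 1 h, including 6 of 6 in kidney, 6 of 6 in lung and 5 of 6 in heart, against 3 of 6 in brain stem, 4 of 6 in blood and 2 of 6 in olfactory bulb. Over all probe sets 49.3% of differences were positive in kidney at 1 h, 47.5% in lung and 49.3% in heart. The share was 50.7% in brain stem, 50.1% in blood and 50.2% in olfactory bulb. The median difference of the 6 genes at 1 h was 0.33 in kidney, 0.34 in lung and 0.46 in heart. It was 0.20 in brain stem, 0.10 in blood and -0.14 in olfactory bulb. Medians over all probe sets were within 0.01 of 0 in these tissues. Apart from the olfactory bulbs, the tissues of 1 h came from the same rats, so their signs are not independent.

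**Figure D2:**
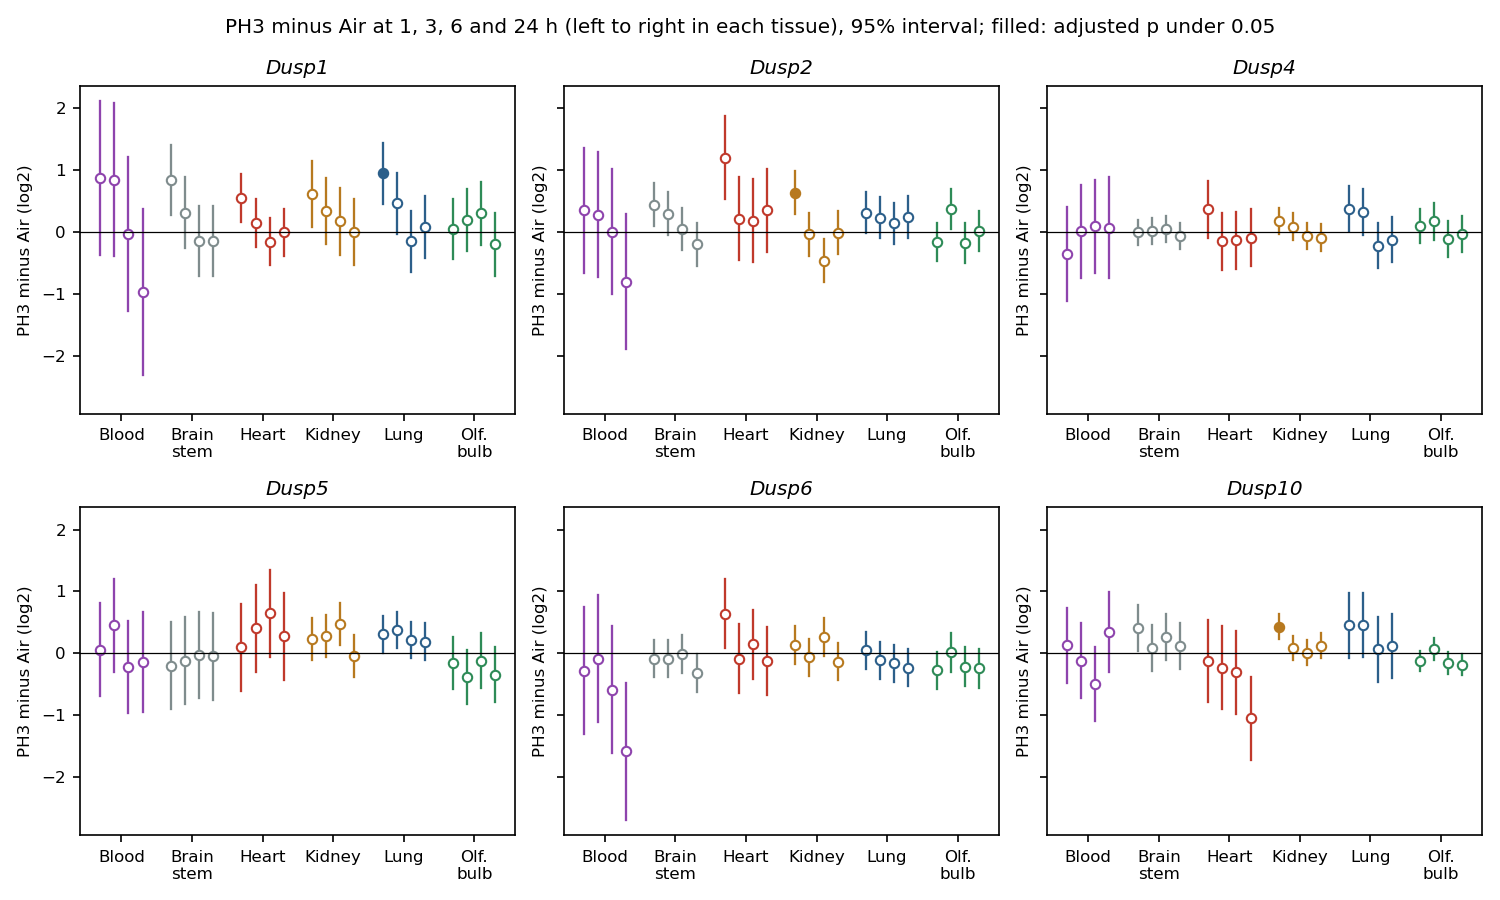
PH3 minus Air (log2, vertical axis) for each gene in each tissue, with 95% intervals from limma; the 4 points of a tissue run from 1 to 24 h and filled points were called. The filled points are kidney Dusp2, kidney Dusp10 and lung Dusp1 at 1 h; intervals were widest in blood.

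Dusp1 (MKP-1) is the archetype of the family, induced by stress, growth factors and hormones. Its promoter is shown because the gene was called in lung and higher on average at 1 h in every tissue; the sequence is RefSeq's, build GRCr8, chr10:17184603-17184902, plus strand, 250 bases before to 50 after the start, with capitals marking TGACG, the core of the cAMP response element, on either strand.
Dusp1: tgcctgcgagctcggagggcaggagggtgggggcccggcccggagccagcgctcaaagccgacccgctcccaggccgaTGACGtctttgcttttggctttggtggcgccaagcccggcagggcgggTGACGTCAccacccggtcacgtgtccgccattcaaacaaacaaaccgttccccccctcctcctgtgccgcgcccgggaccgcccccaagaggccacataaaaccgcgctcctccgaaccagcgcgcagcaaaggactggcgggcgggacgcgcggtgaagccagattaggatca
The window held 3 matches, the first base of each at -172, -124 and -121 from the start, and the last pair overlap on opposite strands. TGACG occurred in 21.2% of 33469 RefSeq promoter windows of the same 300 bases. TGANTCA (the AP-1 site, in 7.33% of windows), the core of the glucocorticoid response element (ACA and TGT with any 3 bases between them, in 6.86%) and the CArG box (in 1.64%) had no match in the Dusp1 window, which says only that these letters are not in these 300 bases.

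In lung at 1 h, Dusp1 read 11.70 (Rat343), 11.50 (Rat350), 10.42 (Rat351) and 10.94 (Rat357) in PH3 rats, against 10.50, 9.99, 10.39 and 9.92 in Air rats. Of the PH3 rats 3 lay above every Air rat, and Rat351 lay inside the Air range. The difference was 0.94 ± 0.24, a 1.92-fold level, with an adjusted p of 0.0201 from limma. The call was lost without PH3 Rat343 (adjusted p = 0.118), PH3 Rat350 (0.0793), Air Rat352 (0.0728) or Air Rat354 (0.0717). The second Dusp1 probe set read 10.34, 9.78, 8.56 and 8.99 in PH3 lungs, against 8.60, 8.04, 8.53 and 7.49 in Air lungs, a difference of 1.25 ± 0.38 with an adjusted p of 0.0547. Without the arrays that stood apart (at 1 h Rat351 and Rat357) the brighter probe set differed by 1.41 (adjusted p = 0.00109) and the dimmer by 1.89 (adjusted p = 0.00641). That left only Rat343 and Rat350, the highest PH3 lungs for both probe sets, so a larger difference follows from the choice of arrays. With the rat as a block in a fit over all tissues, the brighter probe set was no longer called (adjusted p = 0.292) and the dimmer one was (adjusted p = 0.0476). In the same lungs the B cell markers averaged 5.73 to 6.97 in PH3 rats and 6.96 to 7.61 in Air rats (2 genes measured), and the red cell markers averaged 6.34 to 6.78 in PH3 rats and 5.56 to 6.61 in Air rats. The averages of the neutrophil, T cell, macrophage and endothelial lists overlapped between the groups as well, but single markers were called: Il1r2 of the neutrophil list was higher (1.63 ± 0.24, 1 of 6 genes), and of the endothelial list Cldn5 was higher (0.63 ± 0.09) and Kdr lower (-0.49 ± 0.11). Their part in the Dusp1 result was not tested.

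At 3 h the brighter Dusp1 probe set in lung read 10.25, 10.71, 11.07 and 10.43 in PH3 rats, against 10.09, 10.05, 10.30 and 10.16 in Air rats, and was not called (0.46 ± 0.24, adjusted p = 0.239). The dimmer one read 8.16, 8.94, 9.44 and 8.50 in PH3 rats, all above the 6.96, 7.54, 7.73 and 7.95 of Air rats, and was called (1.22 ± 0.38, adjusted p = 0.0373); 7.8% of all probe sets had all PH3 lungs above all Air lungs. Of the 6 neutrophil markers 4 were called higher in these lungs: Il1r2 (1.78 ± 0.24), S100a8 (1.41 ± 0.39), Mmp8 (1.36 ± 0.26) and S100a9 (1.21 ± 0.34). The neutrophil list averaged 6.18 to 7.34 in PH3 lungs and 4.89 to 6.21 in Air lungs, and the macrophage list 7.12 to 7.38 in PH3 lungs and 6.65 to 7.11 in Air lungs. Cd3e of the T cell list was higher (0.57 ± 0.17) and Vwf of the endothelial list lower (-0.55 ± 0.14); the part of these cells in the Dusp1 difference was not tested. The Air lungs of 3 h differed from the other lungs in RNA quality as the control probe sets show it. The 3' minus 5' index of those controls was 0.178 ± 0.065 in PH3 lungs at 3 h and 0.445 ± 0.078 in Air lungs (SD, n = 4 each), and the other lung groups averaged 0.140 to 0.254. Against the Air lungs of 1, 6 and 24 h instead, the dimmer probe set differed by 0.16 ± 0.31 (adjusted p = 0.891) and the brighter by 0.08 ± 0.20 (adjusted p = 0.917). With the index as a covariate the dimmer probe set differed by 0.76 (adjusted p = 0.664), without the arrays that stood apart by 0.92 (adjusted p = 0.25), and with the rat as a block its adjusted p was 0.058. The Air level of the dimmer probe set itself differed between times in lung (adjusted p = 0.0333 in an F test over the 4 Air groups, passed by 12.2% of probe sets). These groups include the Air lungs of 3 h with their high index. The F test did not pass without the arrays that stood apart (adjusted p = 0.159) or with the index as a covariate. At 6 and 24 h the brighter probe set differed by -0.15 ± 0.24 and 0.08 ± 0.24.

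**Figure D3:**
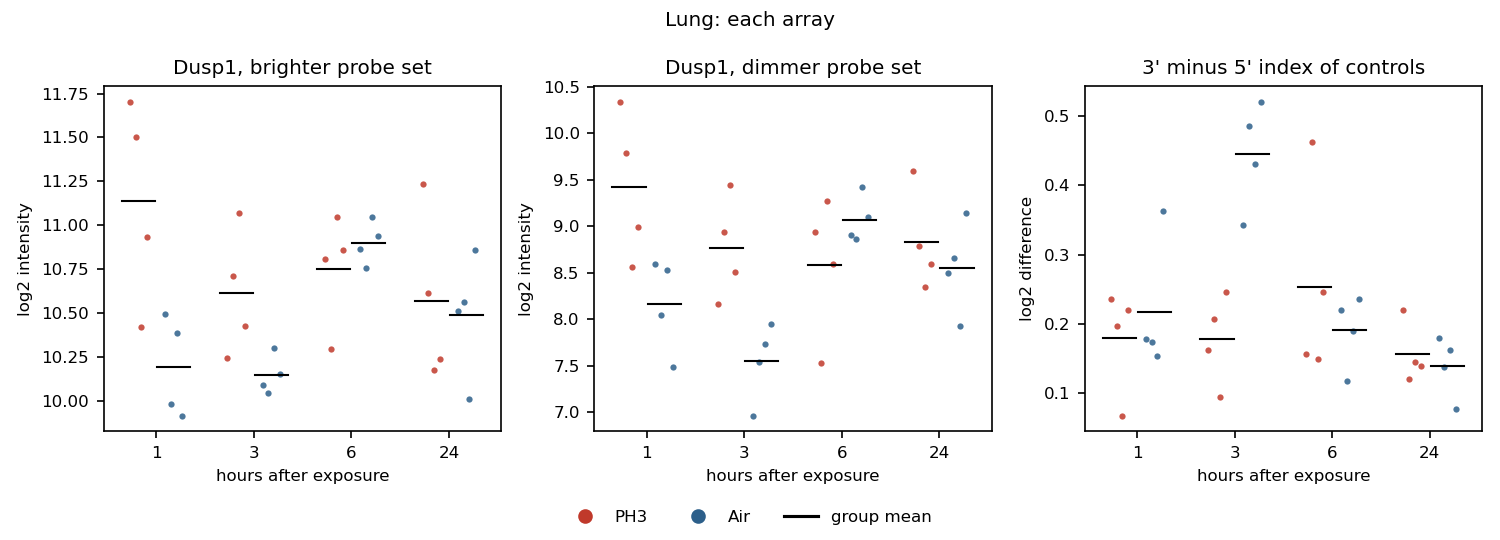
Lung arrays by time after exposure (horizontal axis), PH3 left of Air: log2 intensity of the brighter and the dimmer Dusp1 probe set, and the 3' minus 5' index of the control probe sets (log2 difference). Lines are means; for the brighter probe set at 1 h 3 PH3 lungs (10.94 to 11.70) lie above all Air lungs, and at 3 h the Air lungs have the highest mean index (0.445).

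Outside lung, Dusp1 at 1 h was higher on average without a call. In brain stem it read 9.47, 9.19, 7.92 (Rat351) and 9.16 in PH3 rats, against 8.05, 8.09, 8.18 and 8.08 in Air rats. The Air rats lay close together, 3 PH3 rats lay above them and Rat351 lay below them all; the difference was 0.84 ± 0.28 (adjusted p = 0.386). Without Rat351 it was 1.17 (adjusted p = 0.0281), and without Rat343, whose array stood apart, 0.66 (adjusted p = 0.845). The array of Rat351 did not stand apart, and leaving out the lowest PH3 value raises the difference by construction. In heart Dusp1 read 10.87, 10.51, 10.04 (Rat351) and 10.81 in PH3 rats, against 9.98, 9.95, 10.12 and 9.99 in Air rats, again with only Rat351 inside the Air range. The heart difference was 0.55 ± 0.19 (adjusted p = 0.184), 0.72 without Rat351 (adjusted p = 0.0327) and 0.46 without Rat357, whose array stood apart (adjusted p = 0.403). In kidney it was 0.61 ± 0.26 (adjusted p = 0.309); 3 Air kidneys read 8.55, 8.59 and 8.68, and the fourth, Rat345, read 9.67, above all but 1 of the PH3 kidneys. Blood differed by 0.87 ± 0.61 and olfactory bulb by 0.04 ± 0.24. The 2 Dusp1 probe sets gave the same sign in 21 of 24 comparisons (r = 0.724 over the 24 differences). Both were read from the same arrays, and tissues of a time share rats, apart from most olfactory bulbs.

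Dusp2 (PAC-1) is a nuclear phosphatase induced in activated immune cells. Its promoter window, shown because the gene was called in kidney and had its largest difference in heart, is RefSeq's chr3:135009386-135009685 of GRCr8, plus strand, with capitals marking the complement of TGACG.
Dusp2: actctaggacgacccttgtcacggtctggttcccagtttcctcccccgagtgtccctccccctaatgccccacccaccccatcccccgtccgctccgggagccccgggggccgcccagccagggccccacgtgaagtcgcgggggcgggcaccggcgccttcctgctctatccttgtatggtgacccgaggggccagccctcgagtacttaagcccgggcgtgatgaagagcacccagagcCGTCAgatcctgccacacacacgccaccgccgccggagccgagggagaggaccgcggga
It held 1 match, at -9 to -5, and none of the other motifs.

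In kidney at 1 h, Dusp2 read 6.64, 6.75, 6.09 (Rat351) and 6.65 in PH3 rats, against 6.15 (Rat345), 5.84, 5.82 and 5.77 in Air rats. The groups overlapped only through these 2 rats, the lowest of PH3 and the highest of Air. Dusp2 averaged 6.53 ± 0.30 in PH3 kidneys and 5.90 ± 0.17 in Air kidneys (SD, n = 4 each), a difference of 0.63 ± 0.17 (1.55-fold, adjusted p = 0.0412). The call was lost when any PH3 kidney but that of Rat351, or any Air kidney but that of Rat345, was left out (adjusted p 0.0987 to 0.143). Without the 3 arrays that stood apart it was 0.89 (adjusted p = 0.0236). That left only PH3 Rat350 and Rat357, and took out both rats through which the groups overlapped. With the rat as a block over all tissues adjusted p was 0.867. Beside it, the red cell markers averaged 5.67 to 6.23 in PH3 kidneys and 5.08 to 5.63 in Air kidneys, with Alas2 (1.38 ± 0.35) and Ahsp (0.82 ± 0.22) called. Of the 6 neutrophil markers Il1r2 was called higher (0.61 ± 0.17), and the list averaged 3.50 to 3.77 in PH3 kidneys and 3.53 to 3.66 in Air kidneys. The T cell markers averaged 4.32 to 4.61 in PH3 kidneys and 4.15 to 4.70 in Air kidneys. The part of blood cells in the Dusp2 difference was not tested. At 6 h Dusp2 read 5.68, 5.92, 5.49 and 5.79 in PH3 kidneys, all below the 6.27, 5.97, 6.03 and 6.49 of Air kidneys, and the difference of -0.47 ± 0.17 was not called (adjusted p = 0.589); 2.44% of probe sets had all PH3 kidneys below all Air kidneys at that time. Whether the kidney difference of Dusp2 changed between times was tested directly and did not pass (adjusted p = 0.112).

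In heart at 1 h, Dusp2 read 6.57 (Rat343), 6.88 (Rat350), 4.92 (Rat351) and 6.39 (Rat357) in PH3 rats, against 4.47, 5.18, 5.28 and 5.03 in Air rats. Of the PH3 hearts 3 lay above every Air heart and Rat351 lay inside the Air range. The difference of 1.20 ± 0.33 (2.29-fold) was the largest positive difference among the brightest probe sets and was not called (adjusted p = 0.0757). It was called with the rat as a block (adjusted p = 0.00508), in a fit that called 2.36% of all probe sets in heart at 1 h. It was also called with array weights (1.26, adjusted p = 0.0205) and without Rat351 (1.62, adjusted p = 0.0014), and not without Rat357 (1.13, adjusted p = 0.187). Rat351 was the lowest PH3 heart and its array did not stand apart, so leaving it out raises the difference by construction. Brain stem differed by 0.44 ± 0.17, lung by 0.31 ± 0.16 and olfactory bulb by -0.17 ± 0.15 at 1 h, none of them called. In brain stem at 3 h all PH3 arrays lay above all Air arrays, with means of 4.27 and 3.97, and the difference of 0.30 ± 0.17 was not called (2.36% of probe sets had such separated groups).

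**Figure D4:**
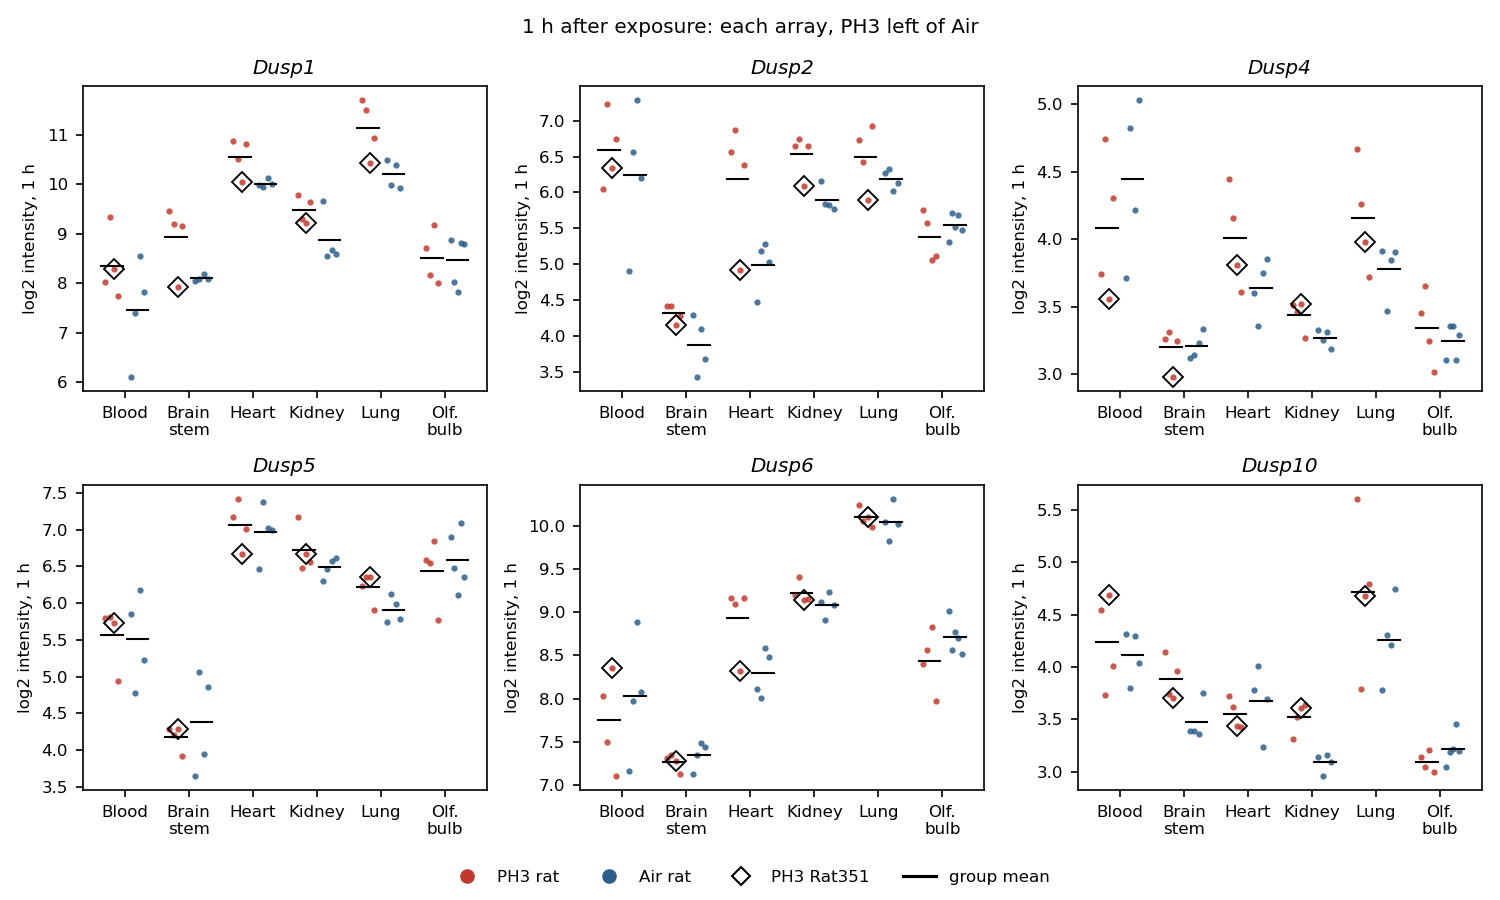
Log2 intensity (vertical axis) of each array at 1 h by tissue (horizontal axis), PH3 left of Air, with group means as lines. Diamonds mark PH3 Rat351, whose heart read 4.92 for Dusp2 and whose brain stem read 7.92 for Dusp1, away from the other 3 PH3 rats.

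The same PH3 rat recurred in these results. At 1 h the heart, kidney, lung, brain stem and blood arrays came from the same 4 PH3 and 4 Air rats, and the olfactory bulbs from other rats. Rat351 was the lowest of the 4 PH3 rats in 13 of the 24 pairs of a solid tissue and a gene, Rat357 in 8, Rat350 in 2 and Rat343 in 1. With blood included, Rat351 lay inside the Air range in 20 of 30 pairs, against 12 for Rat343, 13 for Rat350 and 18 for Rat357. Rat343 and Rat350 were the highest in 12 pairs each. Air rats were uneven too: in the 24 solid tissue pairs Rat345 and Rat352 were the lowest Air rat in 9 each, and Rat353 and Rat354 in 3 each. In heart the 3' minus 5' index was 0.234 for Rat351, 0.868 for Rat357, and 0.283 and 0.214 for Rat343 and Rat350, against 0.228 to 0.278 in Air rats. These counts describe 4 PH3 and 4 Air rats and carry no test. The heart and brain stem arrays of Rat351 did not stand apart. Where it was the lowest PH3 rat, leaving it out raises the difference by construction, so a call gained that way is no separate evidence.

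Dusp4 and Dusp5 had no call in any tissue at any time. Dusp4 (MKP-2), a nuclear phosphatase of ERK and JNK, differed by 0.37 ± 0.18 in lung and 0.37 ± 0.22 in heart at 1 h (smallest adjusted p of its 24 comparisons 0.273), and its signal was dim in every tissue. RefSeq's promoter table gave windows for 5 of the 6 genes, and Dusp4 was not among them. The window of Dusp6, not printed here, held 1 match to the core of the glucocorticoid response element, at -115 to -107, and none to the other motifs. Dusp5, which binds ERK in the nucleus, is known for induction through serum response factor, whose site is the CArG box. Its window is shown because it held 2 CArG boxes: chr1:262543524-262543823 of GRCr8, plus strand, RefSeq, capitals marking the CArG boxes and the complement of TGACG.
Dusp5: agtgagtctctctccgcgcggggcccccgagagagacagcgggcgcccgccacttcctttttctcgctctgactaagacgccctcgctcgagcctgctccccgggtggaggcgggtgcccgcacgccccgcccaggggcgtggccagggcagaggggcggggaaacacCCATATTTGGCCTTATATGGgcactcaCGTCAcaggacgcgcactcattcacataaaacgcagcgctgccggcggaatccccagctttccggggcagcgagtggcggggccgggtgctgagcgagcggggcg
The 2 boxes lay side by side at -82 to -73 and -72 to -63, a TATAA match lay inside the second on the minus strand, and the TGACG match lay at -55 to -51. The largest positive differences of Dusp5 were 0.65 ± 0.34 in heart and 0.47 ± 0.17 in kidney, both at 6 h, and in lung it differed by 0.31 ± 0.14 at 1 h and 0.38 ± 0.14 at 3 h. In kidney at 6 h it read 6.76, 6.62, 6.61 and 6.90 in PH3 rats, all above the 6.38, 6.11, 6.26 and 6.24 of Air rats (adjusted p = 0.57); 1.77% of probe sets were separated that way. In lung at 3 h, with the Air lungs of high index, it read 6.36, 5.83, 6.20 and 5.61 in PH3 rats and 5.15, 5.70, 5.87 and 5.76 in Air rats (adjusted p = 0.0897).

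Dusp6 (MKP-3) removes phosphates from ERK in the cytoplasm and is often read as a gauge of ERK activity. In heart at 1 h it read 9.16, 9.10, 8.32 (Rat351) and 9.17 in PH3 rats, against 8.11, 8.01, 8.58 and 8.48 in Air rats. As for Dusp2, 3 PH3 hearts lay above every Air heart and Rat351 lay inside the Air range, and the difference was 0.64 ± 0.27 (adjusted p = 0.332). The other Dusp6 probe sets differed by 0.63 and 0.81 there, and the second of these was called without Rat351 (1.07, adjusted p = 0.0186). In lung, where Dusp6 was brightest, it differed by 0.05 ± 0.15 at 1 h, with a 95% interval of -0.25 to 0.35. In kidney it differed by 0.14 ± 0.15 and in brain stem by -0.09 ± 0.15. The largest difference of any of the 6 genes was Dusp6 in blood at 24 h. It read 6.16, 6.60, 8.16 (Rat333) and 4.54 (Rat341) in PH3 rats, against 6.98, 8.66 and 8.21 in Air rats, a spread in which the groups overlapped. The difference of -1.59 ± 0.54 was not called by limma within blood (adjusted p = 0.765). It was called in the fit over all tissues with the rat as a block (adjusted p = 2.54e-05), a fit that called 18.3% of all probe sets in blood at 24 h. Of these 4 PH3 arrays, 3 stood apart from the other blood arrays, and without them, which leaves Rat333 alone in the PH3 group, the difference was 0.21, a value that has no spread of its own in PH3 rats. Without Rat333 it was -2.18 (adjusted p = 0.0433), in a fit that called 172 of 31042 probe sets, against 0 with all blood arrays. Rat333 was the highest PH3 array, so leaving it out enlarges the difference by construction. The 3 PH3 arrays then left are those that stood apart. The other 2 Dusp6 probe sets gave the same sign as the brightest in 21 and 14 of 24 comparisons (r = 0.768 and 0.491).

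Dusp10 (MKP-5) acts on p38 and JNK. Its window is shown as the third gene called at 1 h: chr13:98145643-98145942 of GRCr8, plus strand, RefSeq, with no match to any of the motifs searched and therefore no capitals.
Dusp10: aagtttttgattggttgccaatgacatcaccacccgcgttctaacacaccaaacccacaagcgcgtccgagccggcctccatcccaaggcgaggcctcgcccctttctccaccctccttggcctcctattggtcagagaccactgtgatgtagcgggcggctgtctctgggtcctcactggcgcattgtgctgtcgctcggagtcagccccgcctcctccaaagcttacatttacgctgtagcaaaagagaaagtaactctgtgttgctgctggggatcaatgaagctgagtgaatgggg
In kidney at 1 h it read 3.31, 3.52, 3.61 and 3.64 in PH3 rats, against 3.15, 2.96, 3.16 and 3.09 in Air rats. All PH3 kidneys lay above all Air kidneys, as in 3.27% of probe sets, and here Rat351 was among the high ones. The difference was 0.43 ± 0.10 (1.35-fold, adjusted p = 0.013) at levels near the dim end of the array. The call was lost without Air Rat352 (adjusted p = 0.0573) or PH3 Rat357 (adjusted p = 0.0619), and with the rat as a block over all tissues (adjusted p = 1). Brain stem differed by 0.41 ± 0.18, lung by 0.45 ± 0.26 and heart by -0.13 ± 0.33 at 1 h, none called.

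In heart Dusp10 differed between the Air groups of different times. Each time had its own rats, so time of sampling and set of rats cannot be told apart. It read 3.78, 4.01, 3.24 and 3.69 in Air hearts at 1 h and 3.88, 3.62, 3.20 and 3.64 at 3 h. At 6 h Air hearts read 5.55, 6.14, 4.40 and 4.46, and at 24 h 5.76, 5.54, 4.19 and 4.92. Every Air heart of the 2 later times lay above every Air heart of the 2 earlier ones (4.19 or more against 4.01 or less), and the Air groups differed between times with an adjusted p of 0.00915 (limma F test, passed by 0.548% of probe sets in heart). The PH3 hearts read 3.73, 3.62, 3.44 and 3.43 at 1 h and 3.52, 3.51, 3.27 and 3.10 at 3 h. They read 4.0, 5.20, 5.22 and 4.92 at 6 h and 4.34, 3.67, 4.04 and 4.14 at 24 h, so that 3 of the 4 PH3 hearts of 24 h lay below the lowest Air heart of that time. The difference at 24 h was -1.05 ± 0.33, which was not called within heart (adjusted p = 0.479) and was called with the rat as a block (adjusted p = 0.00873). Without the arrays that stood apart it was -1.36 and not called by limma (adjusted p = 0.208). At 24 h that took out Air Rat340, the lowest Air heart, which enlarges the difference by construction. The fit with the rat as a block called 0.325% of all probe sets in heart at 24 h. The T cell markers averaged 4.60 to 4.90 in PH3 hearts and 4.24 to 4.45 in Air hearts at 24 h, and the B cell markers 3.44 to 3.76 in PH3 hearts and 3.28 to 3.42 in Air hearts (2 genes measured); their part was not tested.

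**Figure D5:**
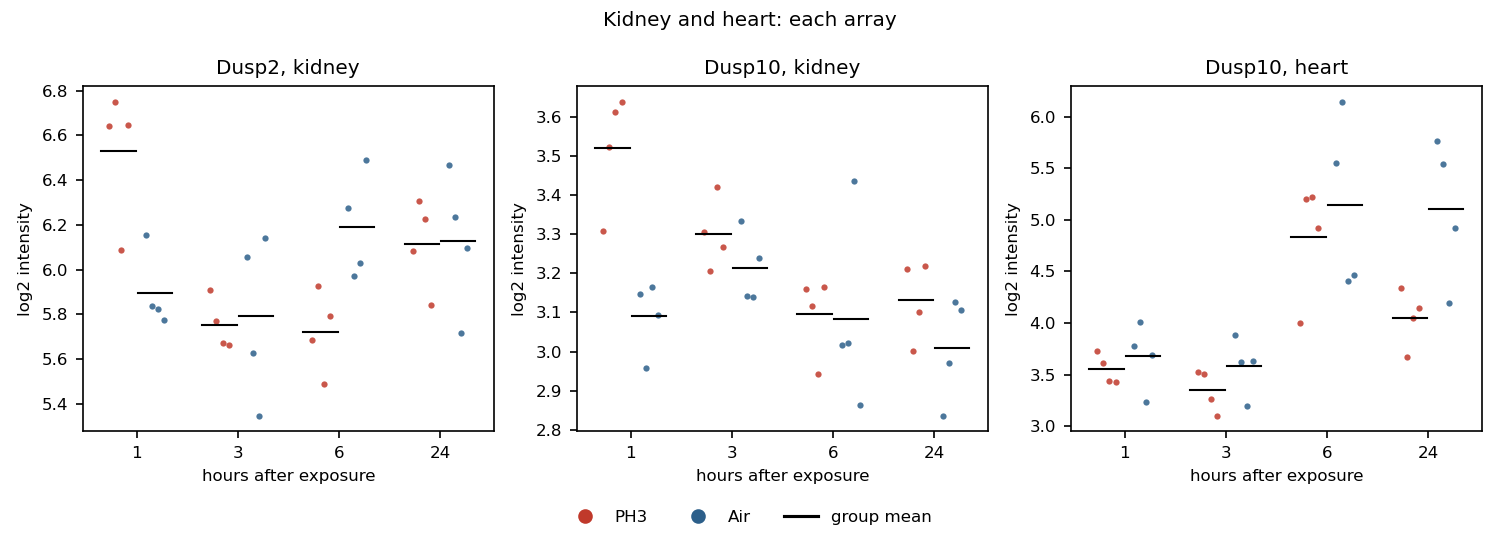
Log2 intensity (vertical axis) of each array by time after exposure (horizontal axis), PH3 left of Air, for Dusp2 and Dusp10 in kidney and Dusp10 in heart; lines are means. Kidney Dusp10 at 1 h runs from 3.31 to 3.64 in PH3 rats and from 2.96 to 3.16 in Air rats, and Air hearts read 4.19 or more for Dusp10 at 6 and 24 h and 4.01 or less at 1 and 3 h.

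Direct tests of whether a difference changed with time or tissue did not separate the genes. Between the 4 times 0 of 36 tests of a gene in a tissue passed (3 had an unadjusted p under 0.05), the smallest adjusted p being 0.112 for Dusp2 in kidney and 0.143 for Dusp1 in lung, and over all probe sets 0.49% passed in kidney, 4.82% in lung, 0.116% in heart, 0.0709% in brain stem and 0% in blood and olfactory bulb. Without the arrays that stood apart, the lung difference of Dusp1 changed between times (adjusted p = 0.0214), with only Rat343 and Rat350 left among the PH3 lungs of 1 h. Between the 4 times in Air rats 1 of 36 tests passed, Dusp10 in heart (4 had an unadjusted p under 0.05), and 7.8% of all probe sets passed in brain stem, 1.39% in olfactory bulb, 0.00322% in kidney and 0% in blood. Between tissues at one time 0 of 24 tests passed in both of 2 analyses, limma with the rat as a block and an F test that weights each tissue by its own standard error (3 had an unadjusted p under 0.05 in the second). Over all probe sets 1.85% passed both at 1 h, 0.129% at 3 h, 0.00322% at 6 h and 0% at 24 h. Dusp10 at 1 h had adjusted p values of 0.617 and 0.0362 in them, and Dusp2 0.21 and 0.0559. The call of Dusp2 in kidney and its absence in lung were not shown to differ. The counts of unadjusted p in these tests have no share over all probe sets beside them and are only a description.

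The neighbours of these genes in the pathway were read from lists. Of the other phosphatases of MAP kinases 5 of 7 were measured, and 1 was called: Dusp9, a cytoplasmic phosphatase of ERK, which was higher by 1.39 ± 0.39 in lung at 1 h and by 1.48 ± 0.23 in kidney at 3 h. Of the 9 atypical dual specificity phosphatases measured 1 was called, Dusp3 in lung at 1 h (0.38 ± 0.11). Of 11 MAP kinases measured 1 was called, Mapk6, the atypical kinase ERK3, in kidney at 1 h (0.43 ± 0.08). Of 17 upstream kinases measured, Map3k6, a relative of the stress kinase ASK1, was higher at 1 h in heart (2.28 ± 0.36), lung (2.15 ± 0.23) and kidney (1.14 ± 0.16), and Map3k8, which feeds ERK in immune cells, in kidney (0.84 ± 0.20) and lung (0.79 ± 0.21). Araf was higher in kidney at 1 h (0.35 ± 0.08) and in lung at 3 h (0.38 ± 0.10), and Map2k6 was lower in lung at 1 h (-0.51 ± 0.15). Among 9 other feedback inhibitors of RAS and ERK, Errfi1, an inhibitor of the EGF receptor, was higher at 1 h in heart (2.16 ± 0.45), lung (1.42 ± 0.23) and brain stem (1.02 ± 0.16), and Sh2b3 was higher in lung (0.50 ± 0.11). In lung at 3 h Spry1 was higher (0.34 ± 0.11) and Cbl lower (-1.01 ± 0.23).

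Genes that the kinases switch on were read from the same arrays. Of 16 ERK and stress kinase output genes measured, 6 were called higher in heart at 1 h, led by Atf3 (4.03 ± 0.55), Fosb (3.30 ± 0.47) and Egr1 (2.25 ± 0.51), with a median of 1.20 over the 16 and 15 positive. In kidney 4 were called higher, led by Fosb (3.49 ± 0.22) and Atf3 (3.39 ± 0.26), and 1 lower, Etv5 (-0.75 ± 0.18), a transcription factor of the ERK pathway; the median was 0.34. In lung 2 were called higher, Fosb (1.38 ± 0.22) and Atf3 (1.11 ± 0.29), with a median of 0.10, and in brain stem and olfactory bulb 0, with limma. Of 7 glucocorticoid-induced genes measured, all 7 were called higher in kidney at 1 h, 5 in lung, 5 in brain stem and 3 in heart, and the median difference was 1.15 in kidney, 0.97 in lung, 1.17 in brain stem and 1.27 in heart. Among them Fkbp5, which tempers the glucocorticoid receptor, was higher by 2.38 ± 0.28 in lung, 1.41 ± 0.15 in heart, 1.18 ± 0.14 in brain stem and 1.16 ± 0.17 in kidney. In olfactory bulb at 1 h none of the 7 was called and the median was 0.18. The lists were chosen with results of these arrays known, so their counts are not independent evidence of a direction.

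Over the 24 differences (6 tissues at 4 times), the genes whose pattern was most like that of each phosphatase were, by Pearson's r among all genes named by their probe sets, Edem1 (0.871), Mcl1 and Smarca5 for Dusp1, and Ifngr1 (0.845), Ifrd1 and Sacm1l for Dusp2. For Dusp4 they were Jdp2 (0.819), Clec1a and Klf13, for Dusp5 Fhl1 (0.669), Dus3l and Ift57, for Dusp6 Ergic2 (0.865), Taf9 and Ier5, and for Dusp10 Mapk8ip3 (0.793), Fads2 and Sp2. The 4 values of a tissue share no arrays with each other but the tissues of a time share rats, apart from most olfactory bulbs, and blood has the widest differences. Over the 20 differences outside blood, r was 0.87 for Edem1 with Dusp1 and 0.846 for Ifngr1 with Dusp2, and 0.534 for Ergic2 with Dusp6.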

How the data were processed

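Total RNA was labelled with a 3' in vitro transcription kit, per the labels' protocols, and hybridised to Affymetrix rat arrays. The deposited values are log2 intensities from RMA made in Partek, per the submitters' processing notes, for 31139 probe sets (range 2.04 to 14.18); raw scans were not used here. After 97 control probe sets were left out, 31042 were fitted tissue by tissue with limma 3.58.1 in R 4.3.3, with 1 coefficient per exposure and time and p adjusted over all probe sets. Symbols come from the platform annotation, and all 9 probe sets matched GRCr8. The 6 genes, the lists and the naming rules (all 6 genes, the 3 genes most like each, and up to 4 called genes of a list in a tissue) were chosen with earlier results of these data known. Rats are separate animals; arrays of 1 rat from several tissues are paired by its number (33 of 59 rats; consensus correlation 0.0168). No pair of arrays was identical (highest correlation 0.9957). The number of arrays limits the precision. The code was tested on simulated data. Alternatives are in the closing section.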

Additional observations from a re-analysis of the deposited data

Results flagged for a closer look

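Of 282 groups of 4 or 5 arrays of a gene in a tissue, 14 held an array whose gap to its neighbour was large for the range of the group (Dixon's criterion at 95%, by which chance sets apart about 1 in 20 groups). The count of 14 is close to that share, so these arrays are listed only as a description. Most lay at 1 h or 3 h. At 1 h PH3 Rat351 read 6.09 for Dusp2 in kidney, where the other PH3 kidneys read 6.64 to 6.75, and 8.32 for Dusp6 in heart (others 9.10 to 9.17). Kidney Air Rat345 at 1 h read 6.15 for Dusp2, where the other Air kidneys read 5.77 to 5.84, and 9.67 for Dusp1 (others 8.55 to 8.68). Brain stem Air Rat354 at 1 h read 3.76 for Dusp10 (others 3.36 to 3.39). Dusp4 was set apart in lung, at 4.35 in PH3 Rat399 at 3 h and at 3.47 in Air Rat352 at 1 h. Dusp5 was set apart in 5 groups: 5.74 in heart PH3 Rat368 and 5.46 in heart Air Rat370 at 3 h, 7.27 in kidney PH3 Rat361 at 3 h, 5.24 in brain stem PH3 Rat375 at 6 h and 4.94 in blood PH3 Rat357 at 1 h. Dusp10 in brain stem PH3 Rat391 at 6 h read 4.32 (others 3.58 to 3.64), and Dusp1 in blood PH3 Rat381 at 6 h read 7.41 (others 8.15 to 8.24). Whether anything beyond chance set these arrays apart was not tested.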

How the results depend on the processing

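The 3 calls at 1 h were made again with quantile normalization, with a variance trend and robust fit, and with the 3' minus 5' index as covariate. They were also made without the arrays that stood apart. With array medians subtracted 2 of them were made (Dusp2 in kidney was not called), and 2 among the brighter 50% of probe sets (Dusp10 was not tested). Array weights gave 4 calls, in fits that called 2.44% of all probe sets in heart, 2.45% in kidney and 4.77% in lung at 1 h. With only the 2 groups of a time in the fit, which rests on fewer arrays, 0 were called by limma. Of all probe sets, such fits called 0.39% in kidney, 1.67% in lung and 0.029% in heart at 1 h. In them 25 of 144 had an unadjusted p under 0.05, a count with no share over all probe sets beside it. With the rat as replicate block over all tissues, 3 were called, none of them among the 3: Dusp2 in heart at 1 h, Dusp10 in heart at 24 h and Dusp6 in blood at 24 h. That fit also gives each probe set a single spread for all tissues. Of all probe sets it called 2.36% in heart at 1 h, 0.325% in heart at 24 h and 18.3% in blood at 24 h. Fits by tissue called 0.915%, 0.00644% and 0% there. In kidney and lung at 1 h it called 0.689% and 1.24%, against 2.35% and 4.24%. The cause of these changes was not tested. Leaving out each array in turn gave 1 to 5 calls, and 3 in 176 of 192 such fits: 1 without kidney Air Rat352 or kidney PH3 Rat357, and 5 without heart PH3 Rat351. Each such fit redid only the tissue of the array left out. Leaving out an array of another tissue could therefore not change the calls in kidney and lung, and 176 does not measure their stability. The lung Dusp1 call was lost without PH3 Rat343, PH3 Rat350, Air Rat352 or Air Rat354 of 1 h. That of kidney Dusp2 was lost without any 1 h kidney array but those of PH3 Rat351 and Air Rat345. Between times, 1 test (Dusp1 in lung) passed without the arrays that stood apart, against 0. None of the 3 calls at 1 h turned its sign in these settings; Dusp6 in blood at 24 h turned to 0.21 without the arrays that stood apart, with 1 PH3 array left. Blood, with standard errors of 0.295 to 0.656, limits what could be seen there.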
